A study of Mus musculus with 6 samples.

Results

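Kupffer cells, the resident macrophages of the liver, were followed through 10 marker genes in a microarray comparison of mouse livers with a hepatocyte-directed deletion of Pdss2 and control livers. Pdss2 encodes a subunit of the enzyme that makes the side chain of coenzyme Q. The genes were chosen by name, with earlier results of these data known. Clec4f, Timd4, Vsig4, Marco, Cd163 and Cd5l mark Kupffer cells or resident macrophages most narrowly, and Adgre1, Csf1r, Cd68 and Mpeg1 are made by macrophages generally. Every probe set annotated to exactly 1 of these symbols was taken, which gave 13 of the 45101 probe sets on the array and 10 of the 18193 genes they name. Csf1r is read by 3 of them, Marco by 2 and each of the other 8 genes by 1.

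The mutants were 3 B6.Alb/cre,Pdss2loxP/loxP males of 176, 178 and 224 days (mutants 1 to 3), and the controls 3 B6.Pdss2loxP/loxP males of 209, 213 and 140 days (controls 1 to 3). All 6 mice carried the floxed Pdss2 alleles and their food was taken away 3 h before death. Cre in this model is driven by the albumin promoter, which is active in hepatocytes, so the deletion was not aimed at the Kupffer cells that the markers report on. Genotypes were caged apart, so that cage and genotype cannot be told apart. Each mouse gave 1 array of whole-liver RNA, and the series asked which metabolic pathways change downstream of the mutation.

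Kupffer cells sit inside the liver sinusoids and clear bacteria, worn-out red cells and debris from the blood that passes them. In the healthy mouse they are seeded before birth and maintain themselves largely by division, and monocytes replace them when they are lost. Their survival depends on signalling through the receptor encoded by Csf1r. In whole tissue, fewer or more cells of a type and less or more RNA per cell cannot be told apart.

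The deposited values are log2 intensities, and every difference below is the mutant mean minus the control mean on that scale, so that a difference of 1 is a doubling. The study describes higher expression of the oxidative phosphorylation pathway in the mutants, from gene set enrichment on a signal-to-noise ranking. Complex I, only a part of that pathway, was read here, by another measure, and its direction was the opposite. The 34 complex I subunit genes measured had a median difference of -0.64. Every sign given below therefore rests on the sample labels as deposited. Array medians were 6.12 to 6.24 in mutants and 5.92 to 6.12 in controls, and the median difference of all probe sets was 0.17 (0.04 once the arrays were quantile normalized and 0.01 once their medians were set equal). No detection call came with the values, so signal over background is unknown for every probe set. Precision is limited by having 3 arrays per group. Pdss2 on its brightest probe set read 6.94, 6.88 and 7.05 in mutants and 7.46, 7.47 and 7.56 in controls, a difference of -0.54 (standard error 0.18, adjusted p = 0.118 from limma). All mutants lay below all controls on that probe set, whereas the other probe sets of Pdss2 differed by 0.35 and 0.40 with overlapping groups, and where each lies relative to the deleted exon was not examined. By quantitative PCR, a measure not made here, the study reports a significant and nearly complete knock-down of Pdss2 in each liver of this mutant genotype that it measured. That loss is far larger than the difference on any of these probe sets. Alb, the hepatocyte gene that marks the tissue as liver, stood at the 99.98th percentile of all probe sets by its mean. The 3′ minus 5′ signal of the Gapdh control probe sets was 0.45, -1.06 and -1.78 in mutants and 2.31, 2.02 and 2.30 in controls, and the 5′ probe set alone was 1.71 higher in mutants. The same measure for Actb was 2.60, 3.95 and 4.50 in mutants and 3.82, 3.90 and 3.11 in controls, and the part of either in the results was not tested.

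None of the 13 probe sets passed an adjusted p of 0.05 in limma, fitted over 45037 probe sets. Over the whole array 1.25% were called higher and 0.746% called lower in mutants. Before adjustment 3 of the 13 were higher at p under 0.05 (Clec4f, and 1 probe set each of Marco and Csf1r) and 0 were lower. By that rule the higher share was 23.1%, against 15.7% of all probe sets, of which 9.54% were lower. The same 3 were the probe sets on which all mutants lay above all controls, 23.1% of the markers against 21.2% of the array. On none did all mutants lie below all controls, which 10.7% of all probe sets did. The difference was positive for 11 of the 13 (84.6%) and for 65.2% of all probe sets. The markers' median difference was 0.50, against 0.17 for the array. By probe set, the share that separated was close to that of the array, and the share past the unadjusted threshold was somewhat above it. Both rest on 3 probe sets, and those of Marco and Csf1r are not the brightest of their genes. By the brightest probe set per gene, 1 of the 10 markers was higher at an unadjusted p under 0.05 in limma and 1 separated, 10% each. Over all genes these shares were 17.3% and 23.3%. Both marker shares rest on 1 gene, Clec4f, so they cannot place the markers below or above the array. With 3 mice against 3, the exact permutation test used for single probe sets cannot give a p below 0.1.

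Clec4f, a C-type lectin restricted to Kupffer cells in the mouse, where it binds galactose-bearing glycans, gave the largest of the 13 differences. It read 8.82, 8.78 and 8.71 in mutants, against 8.23, 7.15 and 7.43 in controls. The mutants lay within 0.11 of each other and above every control, while the controls spread over 1.07 with control 1 nearest to the mutants. The difference was 1.17 (standard error 0.29, 95% interval 0.49 to 1.84), or 2.25-fold (1.41 to 3.58), with an adjusted p of 0.0698 from limma and an exact two-sided permutation p of 0.1, the smallest possible. This is not a call, but it depended on which probe sets shared the adjustment. The adjusted p from limma was 0.0452 where 1 probe set per gene entered, the brightest, and 0.0411 where only the brighter probe sets entered, and over 15 alternatives it ran from 0.0411 to 0.227. The difference kept its sign under all of them, from 0.94 to 1.48, with 1.30 after quantile normalization and 1.01 after centring.

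Timd4, a phosphatidylserine receptor for dying cells that marks long-resident Kupffer cells, had the most negative difference. Its values were 5.32, 4.26 and 4.91 in mutants and 5.49, 5.05 and 4.76 in controls. Mutant 1 lay above controls 2 and 3 and the groups overlapped. The difference was -0.27 (standard error 0.32, adjusted p = 0.643 from limma). The probe set was below the median of the array in all 6 mice and below the lower quartile in 4, so that it was read from the dim end of the signal range.

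Vsig4, the complement receptor with which Kupffer cells capture opsonized bacteria, varied as much within the groups as between them. Mutants read 7.29, 7.91 and 6.11 and controls 6.43, 6.09 and 7.30. Mutant 2 was highest, mutant 1 and control 3 were nearly equal below it, and mutant 3 and control 2 were nearly equal at the low end. The difference was 0.50 (standard error 0.49, 95% interval -0.63 to 1.64, adjusted p = 0.569 from limma). It was 0.10 without mutant 2 and 1.00 without mutant 3.

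Marco, a class A scavenger receptor for bacteria and particles, gave unlike answers on its probe sets. On 1449498_at it read 6.79, 6.34 and 6.32 in mutants and 5.59, 5.67 and 6.09 in controls. All mutants were above all controls here, by 0.70 on average (standard error 0.23, adjusted p = 0.121 from limma). The brighter probe set 1458297_s_at, of the kind whose probes match several transcripts, read 6.20, 6.32 and 6.68 in mutants and 6.26, 6.19 and 5.82 in controls. There control 1 lay above mutant 1, and the difference was 0.31 (standard error 0.22, adjusted p = 0.43 from limma), falling to 0.17 without mutant 3 and to 0.15 with arrays centred. The order of the mice was also unlike: mutant 1 was the highest mutant on 1449498_at and the lowest on 1458297_s_at.

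Cd163, the receptor that takes up haemoglobin bound to haptoglobin, had the widest spread among controls. It read 6.49, 4.89 and 5.79 in mutants and 6.88, 5.78 and 4.97 in controls. The values of both groups covered almost the same range, with mutant 2 and control 3 lowest. The difference was -0.15, with a standard error of 0.55 and a 95% interval from -1.42 to 1.12 (adjusted p = 0.894 from limma), so that a doubling in either direction lies inside the interval.

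Cd5l, a secreted protein of tissue macrophages that inhibits apoptosis and binds lipid, was the only secreted product among the markers. Mutants read 8.28, 7.35 and 7.12 and controls 7.80, 6.89 and 7.39. Mutant 1 was the highest of the 6 mice and the other mutants lay among the controls. The difference was 0.22 (standard error 0.36, adjusted p = 0.745 from limma), and it was -0.12 without mutant 1.

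**Figure D1:**
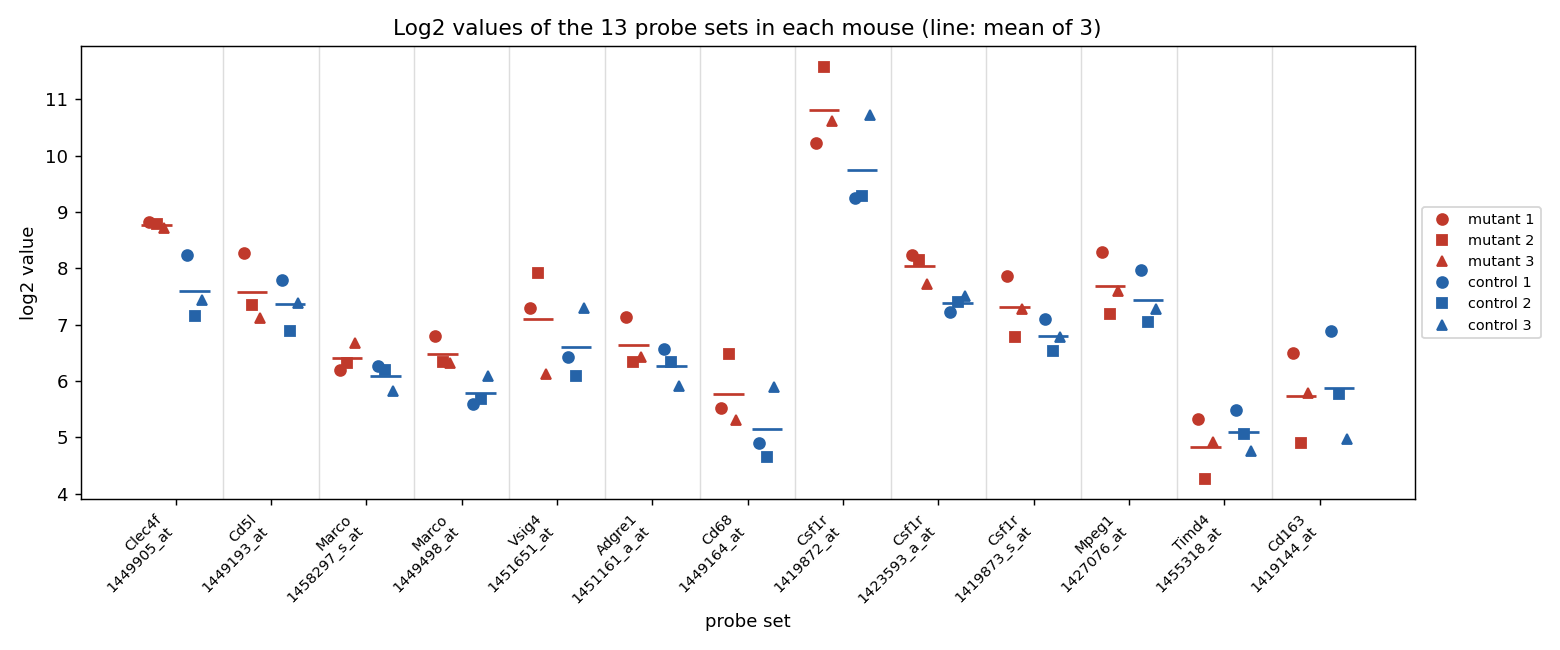
Log2 values (vertical axis) of the 13 marker probe sets (horizontal axis), with red points for mutants, blue points for controls and a line at the mean of 3 mice. All mutants sit above all controls for Clec4f, for Marco 1449498_at and for Csf1r 1423593_a_at, and the groups overlap on the other 10.

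Csf1r encodes the receptor for the growth factors CSF1 and IL-34 on which macrophages depend, and its 3 probe sets were all higher on average in mutants, with none called. The brightest, 1419872_at, read 10.23, 11.58 and 10.61 in mutants and 9.25, 9.28 and 10.72 in controls. Control 3 was above mutants 1 and 3, and controls 1 and 2 were below every mutant. The difference was 1.06 (standard error 0.49, 95% interval -0.07 to 2.18, adjusted p = 0.221 from limma), with 0.67 without mutant 2 and 1.54 without control 3. On 1423593_a_at the values were 8.23, 8.15 and 7.73 in mutants and 7.22, 7.41 and 7.51 in controls. This probe set had the smallest standard error of the 13, 0.22, and all mutants were above all controls (difference 0.655, adjusted p = 0.116 from limma). The values on 1419873_s_at were 7.86, 6.79 and 7.28 in mutants and 7.09, 6.53 and 6.78 in controls, a difference of 0.51 (standard error 0.31, adjusted p = 0.343 from limma). Here control 1 lay above mutant 2, so the groups overlapped, and the difference was 0.23 without mutant 1 and 0.77 without mutant 2.

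Adgre1 encodes F4/80, the adhesion receptor most used to stain mouse macrophages. It read 7.13, 6.33 and 6.43 in mutants and 6.57, 6.33 and 5.90 in controls. Mutant 1 was highest and control 3 lowest, and the other 4 mice lay within a narrow range in between. The difference was 0.36 (standard error 0.29, 95% interval -0.30 to 1.03, adjusted p = 0.474 from limma). It was 0.11 without mutant 1, 0.18 without control 3 and 0.20 with arrays centred.

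Cd68 encodes macrosialin, a glycoprotein of macrophage lysosomes and endosomes. Mutants read 5.52, 6.47 and 5.31 and controls 4.89, 4.65 and 5.89. Mutant 2 was highest, control 3 second, and controls 1 and 2 were below every mutant. The difference was 0.63 (standard error 0.41, adjusted p = 0.384 from limma), with 0.28 without mutant 2 and 1.00 without control 3. Like Timd4 it was dim, below the lower quartile of the array in 3 mice and below the median in 5.

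Mpeg1 encodes perforin-2, a pore-forming protein with which macrophages attack engulfed bacteria. Its values were 8.29, 7.18 and 7.60 in mutants and 7.97, 7.05 and 7.28 in controls. In each group the mouse numbered 1 was highest and the mouse numbered 2 lowest, and the ranges overlapped almost wholly. The difference was 0.26 (standard error 0.35, adjusted p = 0.696 from limma), and -0.04 without mutant 1.

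**Figure D2:**
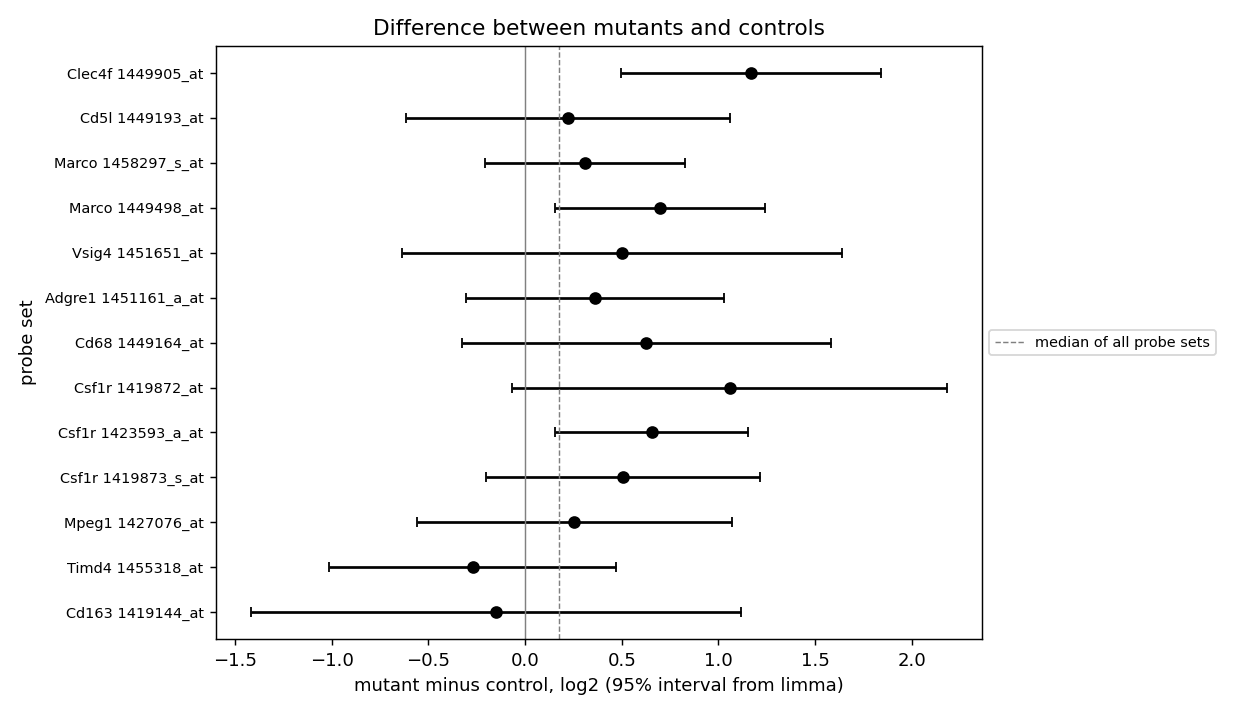
Difference of the means, mutant minus control on the log2 scale (horizontal axis), of each marker probe set (vertical axis), with the 95% interval from limma and a dashed line at the median of all probe sets. The intervals of 10 of the 13 include 0, and those of Clec4f, Marco 1449498_at and Csf1r 1423593_a_at do not.

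The intervals show how little the arrays could resolve. Standard errors ran from 0.22 to 0.55, the 95% interval included 0 for 10 of the 13 probe sets, and it included a doubling for 11. For 10 probe sets the range among the 3 mice of at least 1 group was larger than the difference between the group means. The absence of a call is therefore no measure of equal levels. As a check of the label, Clec4f, Cd5l, Mpeg1 and the 3 probe sets of Csf1r were above the median of the array in all 6 mice. Marco 1458297_s_at, Vsig4 and Adgre1 were above it in all but 1, whereas Timd4, Cd68 and Cd163 were below it in 6, 5 and 4 mice. Marco 1449498_at, which separated the groups, was below it in 3 mice, the controls.

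The mice of a group did not order the markers alike. Mutant 1 was the highest mutant on 9 probe sets, mutant 2 on 3 (Vsig4, Cd68 and Csf1r 1419872_at) and mutant 3 on 1 (Marco 1458297_s_at). Control 1 was the highest control on 8 and control 3 on 5. Mutant 1 and control 1 were both the highest of their groups on 7 probe sets, and mutant 2 and control 3 on 3. Mutant 2 and control 3, a pair picked after the values were seen, departed from their group mates together on several markers. Over all probe sets the deviations of these mice from their group means had a correlation of 0.62 (across probe sets, which are not independent replicates). This was the highest of all pairs of a mutant and a control, and mutant 3 gave 0.45 and 0.40 with controls 1 and 2. Deviations cancel out within a group, so these correlations cannot decide whether any such pair shares a source of variation. For Csf1r 1419872_at, mutant 2 exceeded the mean of the other mutants by 1.16 and control 3 that of the other controls by 1.46. The excess was 1.05 and 1.12 for Cd68 and 1.21 and 1.04 for Vsig4, and for Cd163 both mice were lower than their group mates, with deviations of -1.25 and -1.36. Both were above their group mates on 4 of the 13 probe sets and below them on 6. The labels give no batch that these mice share, and without both of them, an exclusion chosen after the values were seen, the difference of Clec4f was 1.08 (adjusted p = 0.166 from limma), that of Csf1r 1419872_at 1.16, that of Cd68 0.65 and that of Vsig4 0.45, whereas leaving out either mouse alone moved the last 3 much further.

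**Figure D3:**
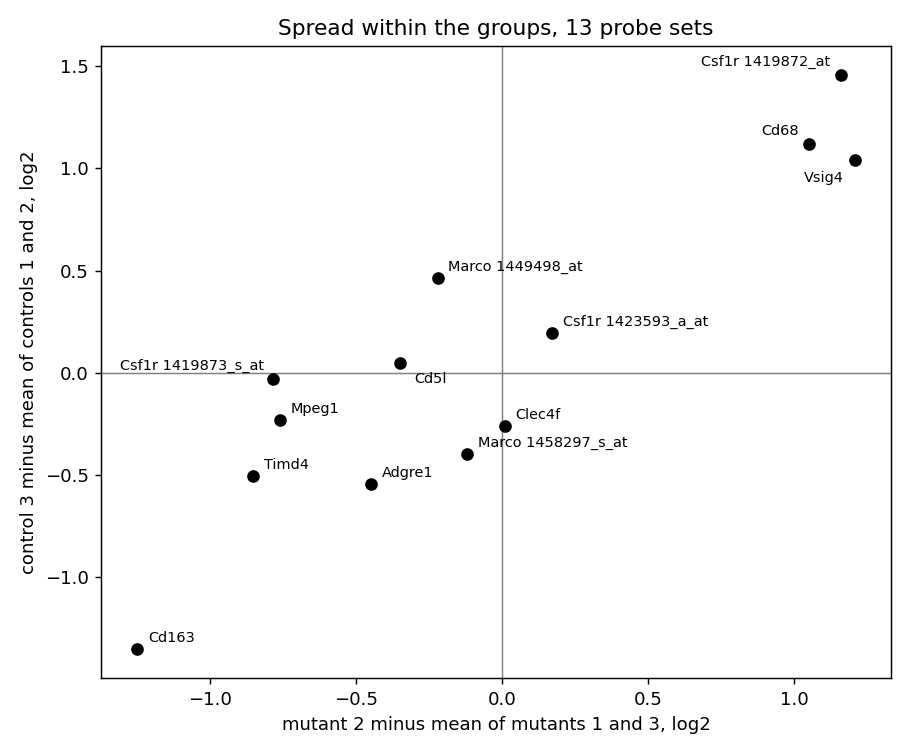
Log2 value of mutant 2 minus the mean of mutants 1 and 3 (horizontal axis) against that of control 3 minus the mean of controls 1 and 2 (vertical axis), 1 point for each of the 13 marker probe sets. Csf1r 1419872_at, Cd68 and Vsig4 lie beyond 1 on both axes, and Cd163 lies below -1 on both.

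The signals and regulators around the markers were read from lists written by hand, with earlier results of these data known. Each gene was read by its brightest probe set. By that probe set 1.73% of the 18193 genes were called higher and 1.04% called lower, the median difference was 0.17, 64.3% of the differences were positive, 17.3% of genes were higher and 12.2% lower at an unadjusted p under 0.05, and in 23.3% of genes all mutants lay above all controls. The 10 markers, read in the same way, had a median of 0.34, 8 positive differences and 1 separation (Clec4f), and 1 was higher at an unadjusted p under 0.05. Csf1, the ligand of Csf1r that circulates and is made by many liver cells, differed by -0.17 (adjusted p = 0.698 from limma) on its brightest probe set and by 0.31, 0.22 and 0.19 on the others. Il34, the second ligand, differed by 0.48 (adjusted p = 0.297 from limma). Of 8 measured genes of Csf1r ligands and signalling, 0 were called by limma, 1 was higher at an unadjusted p under 0.05, and the median was 0.44 (0.28 with arrays centred and 0.22 without control 1).

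A further list held ligands and partners of the marker proteins and genes whose product shares a ligand with one. Its 8 measured genes had a median of 0.15 (-0.02 with arrays centred on their medians). Of them 1 was called higher by limma, 12.5% against 1.73% of all genes. This was Mfge8, whose secreted product bridges phosphatidylserine on dying cells, the lipid that Timd4 also binds, to phagocytes. Mfge8 read 8.76, 9.40 and 8.92 in mutants and 7.80, 7.74 and 7.65 in controls. The groups were far apart and the difference was 1.30 (standard error 0.22, adjusted p = 0.0438 from limma), but with the arrays centred the adjusted p was 0.0596, and when single mice were left out it ran from 0.0191 to 0.188 and stayed under the threshold in 1 of 6 cases, that without mutant 1. Hp, the haptoglobin that carries haemoglobin to Cd163, read 12.51, 12.51 and 12.24 in mutants and 13.01, 13.14 and 13.06 in controls. All mutants were lower, with a difference of -0.65 (adjusted p = 0.0916 from limma). C3, whose fragments Vsig4 binds, was not analysed here.

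Of 12 measured transcription factors of Kupffer cell identity 0 were called by limma, 2 were higher at an unadjusted p under 0.05 and the median was 0.30 (0.14 with arrays centred). Spi1, which encodes PU.1, the factor that commits cells to the myeloid lineage, read 7.36, 7.54 and 7.50 in mutants and 6.47, 6.71 and 6.66 in controls. Every mutant exceeded every control, with a difference of 0.86 (standard error 0.19, adjusted p = 0.0577 from limma). Nr1h3, Spic and Id3 had differences of smaller size, and in whole-liver RNA the cells that these values come from are unknown. Nr1h3, which encodes the liver X receptor alpha, had a difference of -0.02 (adjusted p = 0.956 from limma), Spic, a factor of iron-handling macrophages, 0.23 (adjusted p = 0.574 from limma), and Id3, a regulator needed for Kupffer cell development, -0.49 (adjusted p = 0.43 from limma). A further 11 measured genes of Kupffer cells had a median of 0.23 and 0 calls in limma, with 3 higher and 1 lower at an unadjusted p under 0.05. The differences of these genes, 7 of them positive, ran from -1.17 for Slc40a1, whose values are given under other observations, to 0.81. Their median was 0.07 with arrays centred and 0.09 without control 2.

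Genes of macrophages at large gave no call. Of 25 measured, 22 had a positive difference, 0 were called by limma, 6 were higher and 1 lower at an unadjusted p under 0.05, and the median was 0.38 (0.22 with arrays centred and also 0.22 without mutant 1). The 6 make 24.0% of the list, against 17.3% of all genes, and the 22 positive differences make 88%, against 64.3%. Lyz2, the macrophage lysozyme, read 7.55, 6.87 and 6.64 in mutants and 6.33, 6.14 and 6.44 in controls. All mutants were above all controls, by 0.72 on average (adjusted p = 0.151 from limma). The 3 chains of complement C1q, which macrophages secrete, were not alike: C1qb differed by 0.88 (adjusted p = 0.0936 from limma) and by 1.15 and 0.56 on its other probe sets, C1qa by 0.65 (adjusted p = 0.32 from limma) and C1qc by 0.15 (adjusted p = 0.895 from limma). Mutant 1 was the highest of all 6 mice for C1qa and C1qc, at 7.38 and 7.82.

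Markers of cells that enter the liver from blood were compared as well. Of 15 measured monocyte and neutrophil genes 0 were called by limma, 5 were higher at an unadjusted p under 0.05, all mutants were above all controls for 6, and the median was 0.43 (0.27 with arrays centred). The 5 make 33.3% of the list, against 17.3% of all genes, and the 6 make 40%, against 23.3%. Their intensities, summed on the linear scale and given as log2, were 10.48 to 10.53 in mutants and 10.08 to 10.14 in controls, and no gene of the list was at 0 in any mouse. S100a8, a calprotectin subunit abundant in neutrophils, read 6.61, 6.60 and 6.76 in mutants and 6.05, 6.17 and 6.08 in controls (difference 0.56, adjusted p = 0.112 from limma). S100a9, its partner, differed by 0.98 (adjusted p = 0.147 from limma), again with all mutants higher. Ccr2, the chemokine receptor of inflammatory monocytes, differed by -0.08 (adjusted p = 0.902 from limma) with overlapping groups on its brightest probe set. On the second it differed by 0.59 with all mutants above all controls (adjusted p = 0.158 from limma), and on the others by -0.14 and 0.00067. Ptprc, the pan-leukocyte marker CD45, read 7.71, 6.17 and 7.30 in mutants and 7.59, 6.57 and 5.92 in controls, a difference of 0.37 (adjusted p = 0.696 from limma, and -0.05 on its other probe set). The part of blood leukocytes in the macrophage values was not tested.

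Genes that macrophages switch on in injured or fatty liver, and inflammatory mediators, gave no call. For 8 measured genes of lipid-associated macrophages the median was 0.32 (0.15 with arrays centred and 0.12 without control 1), 5 differences were positive, and 1 was higher at an unadjusted p under 0.05. Trem2, a lipid-sensing receptor, differed by 0.17 (adjusted p = 0.736 from limma) and by 0.47 on its other probe set. Gpnmb, a glycoprotein of the same cells, differed by 0.48 (adjusted p = 0.282 from limma) and by 0.78 on its other probe set. The difference of largest size in the list was that of Fabp5, a fatty acid binding protein, named after its values were seen. It read 10.85, 7.64 and 7.995 in mutants and 10.28, 9.76 and 9.47 in controls, with mutant 1 above every control, mutants 2 and 3 below them, and a difference of -1.01 (adjusted p = 0.457 from limma). For 17 measured mediators the median was 0.18 (0.04 after quantile normalization and 0.015 with arrays centred), with 3 higher and 1 lower at an unadjusted p under 0.05 in limma. Tnf differed by 0.13 (adjusted p = 0.796 from limma). Il1b read 6.86, 6.68 and 6.78 in mutants and 6.40, 6.18 and 6.38 in controls, so that the mutants were above the controls by 0.45 without reaching the threshold (adjusted p = 0.179 from limma).

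Sinusoidal endothelial cells line the vessels in which Kupffer cells sit and share scavenging work with them. Of 15 measured genes of theirs 2 were called higher by limma, 13.3% against 1.73% of all genes. At an unadjusted p under 0.05 in limma 6 were higher, 40% against 17.3% of all genes. All mutants lay above all controls for 6, 40% against 23.3%. Stab2, the hyaluronan scavenger receptor stabilin-2, read 10.32, 11.11 and 10.53 in mutants and 9.21, 8.86 and 8.43 in controls, with a difference of 1.82 (standard error 0.29, adjusted p = 0.0375 from limma). Stab1, the related stabilin-1, which some macrophages also make, read 9.60, 9.92 and 9.01 in mutants and 8.33, 8.06 and 7.97 in controls, with a difference of 1.39 (standard error 0.27, adjusted p = 0.0499 from limma). All mutants were above all controls for both genes. Neither call held with the arrays centred on their medians (adjusted p = 0.0571 for Stab2 and 0.071 for Stab1 from limma). When single mice were left out, the adjusted p from limma ran from 0.0184 to 0.168 for Stab2, under the threshold only without mutant 1, and from 0.0524 to 0.192 for Stab1, never under it. The list's median was 0.41 (0.25 both with arrays centred and without mutant 1), its summed intensity as log2 12.67 to 13.38 in mutants and 11.67 to 12.43 in controls, and none of its genes was at 0. Whether the endothelial share of the tissue had a part in the marker values was not tested.

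**Figure D4:**
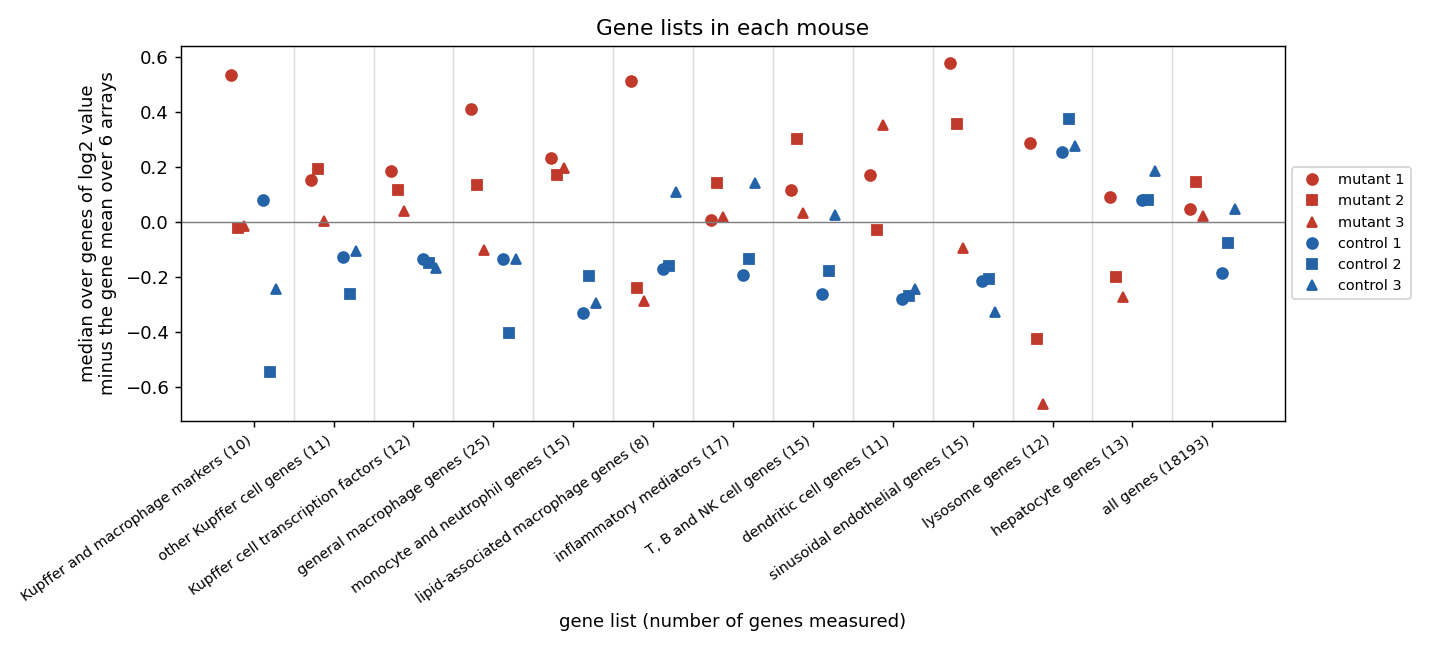
For each gene list (horizontal axis, with the number of genes measured), the middle value among its genes after subtracting every gene's own 6-array mean (vertical axis, log2), with red points for mutants and blue points for controls. For the 10 markers the mutants sit at 0.54, -0.02 and -0.02 and the controls at 0.08, -0.55 and -0.24, so that the groups overlap, with mutant 1 highest.

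Mouse by mouse, the median of the 10 markers, each set against its own mean over the 6 arrays, was 0.54, -0.02 and -0.02 in mutants and 0.08, -0.55 and -0.24 in controls. Mutant 1 stood clear of all others, control 1 was above mutants 2 and 3, and control 2 was lowest. For general macrophage genes the same measure was 0.41, 0.13 and -0.10 in mutants and -0.13, -0.41 and -0.13 in controls. For all genes it was 0.05, 0.15 and 0.02 in mutants and -0.19, -0.08 and 0.05 in controls, so that part of the offset was shared by the whole array. The summed intensity of the 10 markers as log2, which weighs bright genes most, did separate. It was 11.396 to 12.086 in mutants and 10.396 to 11.33 in controls. The sums of general macrophage genes overlapped (11.464 to 12.002 and 11.145 to 11.555), as did those of T, B and NK cell and hepatocyte genes. Those of ligands and partners and of complex I were lower in all mutants.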

How the data were processed

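Total RNA from flash-frozen liver of 3 mutants and 3 controls was labelled and hybridized to Affymetrix arrays, 1 per mouse. The deposited values are 1 log2 intensity per probe set and array, which the authors obtained in dChip by normalization and a model of the perfect-match probes. They were analysed as deposited. For dChip, version and baseline array are not stated. A C. elegans array is named in the methods, whereas the probe sets carry the names of a mouse array. Exactly 0 stood in 40 places, 27 of them in control 3. Leaving out 64 Affymetrix control probe sets, 45037 were fitted with lmFit and eBayes of limma 3.58.1 (R 4.3.3) and p values were adjusted by Benjamini-Hochberg, with 0.05 as the threshold. Probe sets were named through GEO's platform annotation, where 34945 have 1 symbol, 932 several and 9160 none. For a single measure the test was an exact permutation of the 20 assignments, two-sided. The comparison was tested on simulated data.

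The 10 markers were named with every probe set. In 17 further hand-written lists (258 genes, 229 measured by a probe set with 1 symbol) the genes named were up to 4 with the smallest p among those called, and genes that define each list. Markers and lists were chosen with earlier results of these data known. Ly6c2 and other genes with no such probe set were not analysed here. The labels call the arrays biological replicates and give no litter, batch or date. Alternatives were quantile normalization, median centring, brighter probe sets only, 1 probe set or the mean per gene, the trend and robust options of eBayes, age as a covariate, a replicate block, and leaving out each mouse. Leaving out both mutant 2 and control 3 was added after seeing the data. Figures were drawn with matplotlib 3.10.9.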

Additional observations from a re-analysis of the deposited data

Results flagged for a closer look

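Outside the comparison of liver genes, the probe sets for transcripts that are spiked into every hybridization gave more signal on the mutant arrays. BioB averaged 10.41, 11.04 and 10.70 on mutant arrays and 9.13, 8.93 and 8.67 on control arrays over its 3 probe sets, a difference of 1.81 on the log2 scale. The difference was 1.66 for BioC and 1.43 for BioD, and 0.59 for Cre, with all mutant arrays above all control arrays for each (exact two-sided permutation test, p = 0.1 for each, the smallest possible). The mutants also carry a Cre transgene, so that spiked Cre and transgene RNA cannot be told apart in the Cre value. The differences of BioB, BioC and BioD exceeded that of every marker probe set, and their part in the marker values was not tested.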

How the results depend on the processing

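Of 186 marker differences recomputed under alternatives, 178 kept their sign and side of the threshold, 2 passed it (Clec4f, with brighter probe sets and with the brightest per gene, each giving 1 marker called higher against 0), and 6 changed sign when a mouse was left out. With 1 mouse left out the difference ran from -0.12 to 0.46 for Cd5l (-0.12 without mutant 1, -0.01 without control 2), from -0.0435 to 0.52 for Mpeg1 (lowest without mutant 1), from -0.515 to 0.013 for Timd4 (highest without mutant 2) and from -0.60 to 0.35 for Cd163 (0.27 without mutant 2, 0.35 without control 1). No marker changed sign with quantile normalization or centring. Of 153 list medians under alternatives 122 stayed within the spread between replicates and 31 moved further. The median difference of the markers ran from 0.37 to 0.52 with 1 mouse left out, and 0 markers were called then, with 1 to 5 past an unadjusted p of 0.05 in limma. The counts over all probe sets, 561 higher and 336 lower, moved far more. They were 150 and 150 with arrays centred, 1587 and 1463 with brighter probe sets, 895 and 748 with the brightest per gene, 309 and 193 with the mean per gene, 864 and 549 with trend and robust options and 1392 and 1123 with age as a covariate. With 1 mouse left out they ran from 0 to 1289 higher and 0 to 2551 lower, reaching those maxima without mutant 1 and staying at 1 and 2 without control 1 and at 0 without any other mouse (7526 to 11749 at an unadjusted p under 0.05 in limma). Without both mutant 2 and control 3, chosen after seeing the data, 0 and 0 were called (10823 at an unadjusted p under 0.05 in limma). Same-numbered mice deviated with correlations of 0.06, -0.50 and -0.56 over all probe sets. Deviations from a group mean cancel out within the group, so these correlations cannot decide whether the replicate numbers pair the mice. With the replicate block 0 and 0 were called, with 7935 at an unadjusted p under 0.05 in limma. The cause of these shifts was not tested.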

Other observations

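Several gene groups that are not particular to macrophages, and Slc40a1 from the further Kupffer cell genes, are given here as values. Lysosome genes, in whose compartment the product of Cd68 lies, had a median difference of -0.60 over 12 measured, with 1 positive, 0 called by limma and 3 lower at an unadjusted p under 0.05, as were 12.2% of all genes. Their median, each gene set against its own mean, was 0.29, -0.43 and -0.66 in mutants and 0.25, 0.38 and 0.28 in controls, so that mutant 1 lay among the controls. Slc40a1, the iron exporter ferroportin with which macrophages and other liver cells release iron, was singled out after its values were seen. Among the 11 further Kupffer cell genes it had the most negative difference. It read 9.62, 8.86 and 8.48 in mutants and 9.72, 10.33 and 10.40 in controls (difference -1.17, adjusted p = 0.0901 from limma, and -0.55 on its other probe set), the reverse of the direction of Clec4f.

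Bile duct genes had a median of 0.68 over 7 measured, all positive, with 0 called by limma and 5 higher at an unadjusted p under 0.05, 71.4% against 17.3% of all genes. Their summed intensity as log2 was 9.20 to 9.58 in mutants and 8.52 to 8.88 in controls. T, B and NK cell genes had a median of 0.31 (15 measured, 2 higher at an unadjusted p under 0.05), dendritic cell genes 0.41 (11 measured, 1 higher), red cell genes 0.29 (4 measured, 1 higher) and stellate cell genes 0.13 (15 measured, 3 higher and 1 lower), with 0 called by limma in each. With arrays centred the medians were 0.15, 0.25 and 0.13 for the first 3 of these lists. The stellate median was -0.02 after quantile normalization and -0.03 with centred arrays. Hepatocyte genes had a median of -0.23 over 13 measured, with 0 called and 0 past an unadjusted p of 0.05 in limma, and Alb differed by -0.25 (adjusted p = 0.565 from limma). Among the 34 complex I genes limma called 0, and 16 were lower before adjustment (p under 0.05), 47.1% against 12.2% of all genes.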
